A study of Caenorhabditis elegans with 2 samples.

Results

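The genes described here are cdc-48.1, cdc-48.2, ufd-1, ubq-1 and uba-1, which encode core parts of the ubiquitin machinery of the nematode Caenorhabditis elegans. These 5 of 19973 nuclear protein-coding genes were listed by name, and cdc-48.1 was chosen by the signal of its peak, which is among the strongest of the study. Its height is therefore given as a description and with no test. The peaks are of the POU homeodomain transcription factor CEH-18, mapped by immunoprecipitation of chromatin and sequencing of its DNA (ChIP-seq) from late embryos of strain OP533, taken whole. The worms were hermaphrodites of the genotype unc-119(tm4063) III; wgIs533, collected 3 h after synchronisation by bleaching, and both replicates carried the same tagged transgene. The tag was GFP-FLAG at the C-terminus, the description gives an anti-GFP antibody while the antibody field gives ceh-18, and whether the line is 1 integrant is not stated. The 2 biological replicates formed 1 group, so no conditions could be compared, and whole embryos do not show in which cells a site was occupied.

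CDC-48, called p97 or VCP in mammals, is a ring-shaped AAA ATPase that pulls ubiquitinated proteins out of complexes and membranes so that the proteasome can degrade them. UFD-1 binds CDC-48 together with NPL-4 and recruits ubiquitinated substrates. Ubiquitin itself is made in part from UBQ-1, a chain of ubiquitin units that is cut apart after translation, and UBA-1 is the E1 enzyme that activates ubiquitin for transfer to the E2 conjugating enzymes. Worms have paralogous CDC-48 proteins from cdc-48.1 and cdc-48.2.

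A summit is the base of highest signal in a peak. Each gene was searched from 1000 bp upstream of its annotated 5′ end to the end of its body, on the ce11 build. There were 4 peak lists. The thresholded list holds 2575 peaks kept by the irreproducible discovery rate, the authors' measure of agreement between replicates. The pooled list holds 28466 peaks of both replicates together, including background, and replicates 1 and 2 had lists of 30000 and 21337 peaks. The signal is the peak height as the authors deposited it, on a scale that is not stated, so it ranks peaks within a list only. Because the lists are deep, a listed summit alone means little. A thresholded summit was found in the searched region of 1897 protein-coding genes (9.5%), but a pooled summit in 52.1%, a replicate 1 summit in 54.2% and a replicate 2 summit in 47.4%. Each thresholded peak is also in the pooled list, and the lowest of them has a signal of 114.2. The pooled list has 2575 peaks with at least this signal, as many as the thresholded list holds.

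The sequence under the cdc-48.1 summit is shown with 3 windows of cdc-48.2 and ubq-1, whose signals were lower, and the window of rpl-3, the gene whose peak was most like that of cdc-48.1. Each window holds 151 bases centred on a summit or position, read on the strand of the gene from the WBcel235 assembly by RefSeq, which is the same build. Capitals mark matches to the E-box word CANNTG. The cdc-48.1 window is chrII:10563492-10563642 on the minus strand. The windows of cdc-48.2 are chrII:8138261-8138411, at the same distance upstream as the cdc-48.1 summit, and chrII:8137397-8137547, around a summit just outside the searched region. The window of ubq-1, in its first intron, is chrIII:5940608-5940758, and that of rpl-3 is chrIII:3867505-3867655, all on the plus strand.
cdc-48.1 summit: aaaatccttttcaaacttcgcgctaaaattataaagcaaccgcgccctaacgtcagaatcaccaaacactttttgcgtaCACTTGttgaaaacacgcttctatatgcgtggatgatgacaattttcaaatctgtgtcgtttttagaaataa
cdc-48.2 at the same distance: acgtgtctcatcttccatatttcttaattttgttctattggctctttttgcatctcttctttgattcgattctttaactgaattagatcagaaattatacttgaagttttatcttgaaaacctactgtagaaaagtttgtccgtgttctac
cdc-48.2 upstream summit: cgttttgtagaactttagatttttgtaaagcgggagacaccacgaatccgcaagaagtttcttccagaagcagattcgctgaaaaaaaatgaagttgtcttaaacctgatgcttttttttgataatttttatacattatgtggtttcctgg
ubq-1 intron summit: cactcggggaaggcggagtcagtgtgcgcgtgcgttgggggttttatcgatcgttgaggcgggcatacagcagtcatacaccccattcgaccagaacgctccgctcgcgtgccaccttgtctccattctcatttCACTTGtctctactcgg
rpl-3 summit: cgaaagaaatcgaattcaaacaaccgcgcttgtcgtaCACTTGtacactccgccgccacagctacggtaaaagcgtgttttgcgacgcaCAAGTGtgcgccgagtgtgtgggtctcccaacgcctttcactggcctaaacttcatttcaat

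Of the 5 genes, cdc-48.1 had a thresholded summit and the other 4 had none, in a genome where 9.5% of protein-coding genes had one. That summit was also the only thresholded one of the 5 in a promoter window (1000 bp upstream to 200 bp downstream of the 5′ end), where 7.2% of genes had one. The share of the 5 genes cannot be read against these percentages, since cdc-48.1 was chosen for its peak. In the pooled list the 5 regions held 12 summits. Of these, 3 had a −log10 q of at least 1.3 (q of at most 0.05), 1 at cdc-48.1 and 2 at ubq-1. This share of 25% was near that of all pooled summits, of which 6482 of 28466 (22.8%) reached it.

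The gene cdc-48.1 (WBGene00007352, chrII:10560036-10563407, minus strand, 3372 bp) had 1 high summit and otherwise only low ones. The peak covered chrII:10563364-10563759, with its summit at position 10563567, 160 bp upstream of the annotated 5′ end. It lies in the 704 bp between cdc-48.1 and C06A1.6, the next gene upstream, which points the same way. No other protein-coding gene had this summit in its promoter window. Small nucleolar RNA genes lie inside cdc-48.1, and the nearest one was 503 bp from the summit. All 116 overlapping words of 36 bases in the window occur once in the genome.

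The signal of the cdc-48.1 peak was 910.9 in the pooled list, 411.2 in replicate 1 and 500.4 in replicate 2. It ranked 3 in the pooled and thresholded lists, 4 in replicate 1 and 3 in replicate 2. In replicate 2 the peaks at ranks 4 and 5 were on mitochondrial DNA, with signals of 491.5 and 456.4. The cdc-48.1 summits of both replicates were within 2 bp of each other, at 158 and 160 bp upstream. Against the median peak of its own list the signal was 19.4-fold in replicate 1 and 20.5-fold in replicate 2. The median depends on how far down a list goes, and the lists held 30000 and 21337 peaks. The closeness of these folds thus depends on list length. The log2 ratio of replicate 2 to replicate 1 was taken on this scale of signal over list median. Its median was -0.14 and its SD 0.39 across 1421 genes with a thresholded promoter summit and a promoter summit in both replicates. For cdc-48.1 it was 0.08. The peak was 396 bp wide, against a median width of 484 bp in the thresholded list.

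Around this peak the gene was nearly empty. The only other pooled summit in the searched region was in a coding exon 2332 bp into the gene, with a signal of 25.2 and a −log10 q of 0.04. Replicate 1 listed 5 further summits, with signals from 14.97 to 18.7, all below its list median of 21.2, and replicate 2 listed none. The next thresholded summit lay outside the region, 4380 bp from the 5′ end and thus beyond the 3′ end of the gene, with a signal of 129.7 at rank 2131. The nearest other 5′ end to it was that of mnk-1, 3983 bp away.

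**Figure D1:**
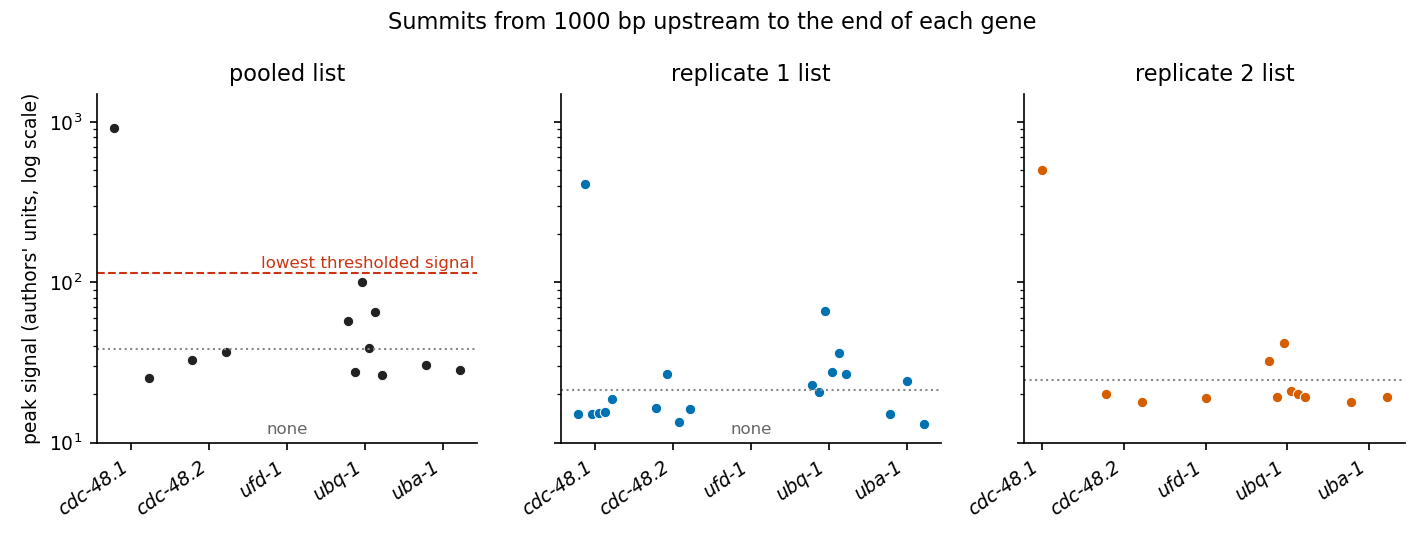
Signal of every summit in the searched regions of the 5 genes (points, log scale) in the pooled list and in each replicate, with the list median (dotted) and the lowest thresholded signal of 114.2 (dashed). The cdc-48.1 summit stands at 910.9, 411.2 and 500.4, above all other summits of the 5 genes in its list.

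The paralogue cdc-48.2 (WBGene00008053, chrII:8138496-8141230, plus strand, 2735 bp) lies on the same chromosome and had no comparable peak. Its 2 pooled summits were in an intron 498 bp into the gene, with a signal of 32.6, and in a coding exon 2020 bp into the gene, with a signal of 36.6. Both were below the pooled list's median of 38.2. In replicate 1 it had 4 summits, all in coding exons, with signals from 13.5 to 26.9, and in replicate 2 it had 2, with signals of 20.2 at 287 bp upstream and 17.96 in a coding exon. No upstream summit was listed in the region in replicate 1 or in the pooled list. By its strongest pooled summit, cdc-48.2 ranked 7372 of the 10408 genes that had one.

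The strongest summit of cdc-48.1 had 24.9 times the signal of that of cdc-48.2 in the pooled list, 15.3 times in replicate 1 and 24.7 times in replicate 2. The log2 ratio was 4.28 ± 0.49 (SD, n = 2) over the replicates. The cdc-48.2 summit in this ratio was a different site in each list. It was 2020 bp into the gene in the pooled list, 1737 bp into it in replicate 1 and 287 bp upstream in replicate 2. Their −log10 q values were 0.26, 0.75 and 0.13. The ratio and its SD thus compare the strongest summits of 2 genes and not a fixed pair of sites. The pooled site at 2020 bp had a summit within 100 bp in both replicates, but was the strongest in neither. It lay at 1959 bp in replicate 1 (signal 13.5) and at 2022 bp in replicate 2 (17.96). Over all pooled summits 37.4% had such a match. The direction of the ratio was the same in each list, and no test was made, because cdc-48.1 was chosen for its height. The region's limit matters for the size of this contrast. A summit of signal 95.6 lay 1024 bp upstream of cdc-48.2, just outside the region, and was found in replicate 1 (51.8, at 1015 bp) and replicate 2 (43.3, at 1023 bp). With that summit counted, the log2 ratio in the pooled list was 3.25, against 4.64 without it. It lies in the 1577 bp shared with the divergent gene ctns-1, a homologue of the lysosomal cystine transporter cystinosin, and is nearer to the 5′ end of ctns-1, at 554 bp.

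**Figure D2:**
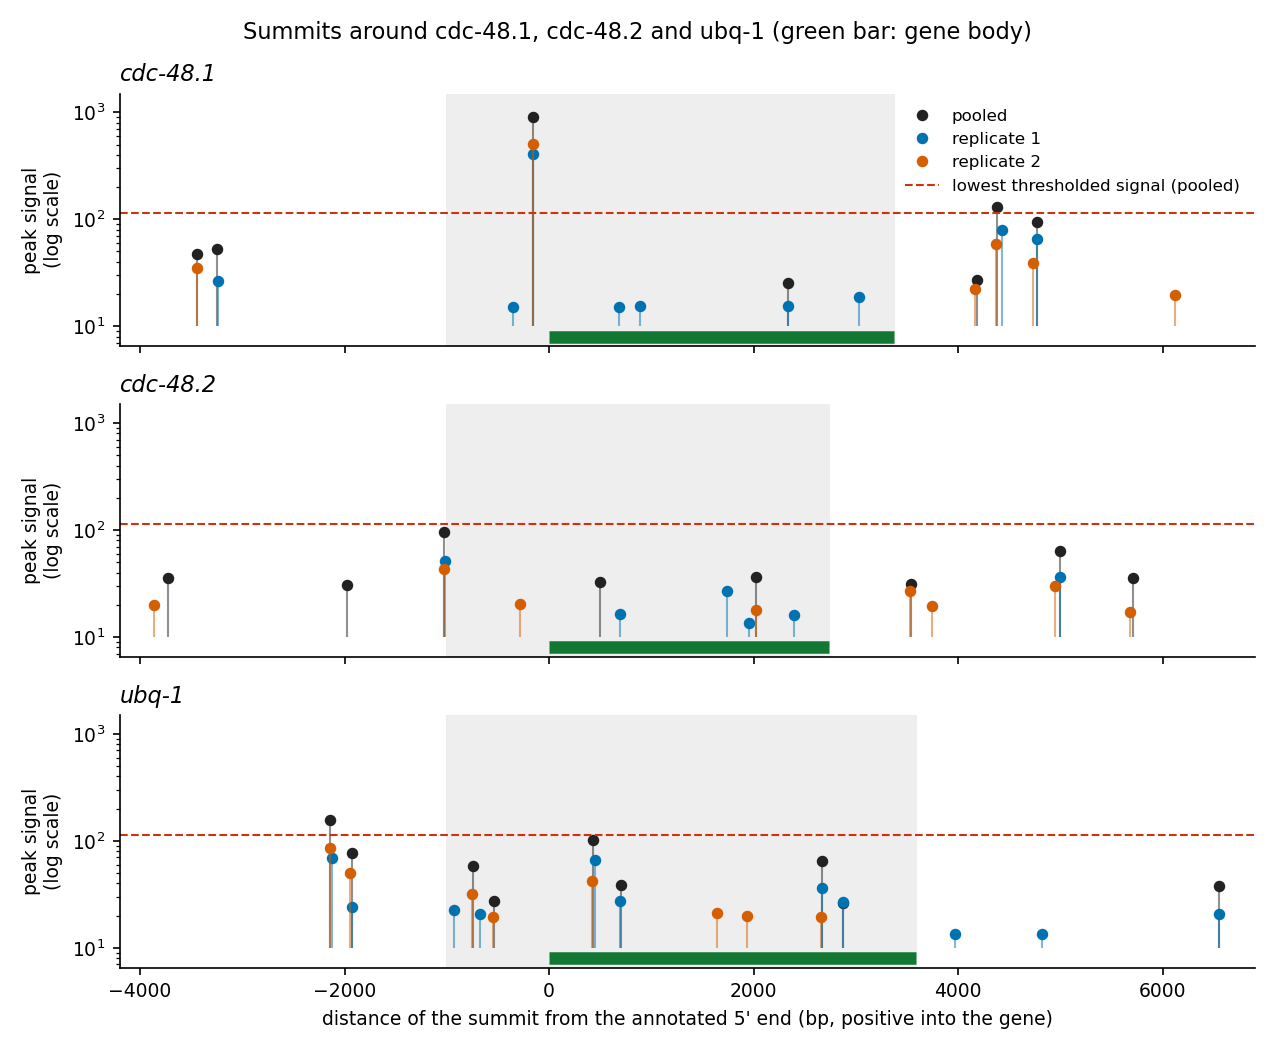
Signal of summits (log scale) by distance from the annotated 5′ end of cdc-48.1, cdc-48.2 and ubq-1, with the gene body as a green bar, the searched region in grey and the lowest thresholded signal (114.2, for the pooled list) dashed. Upstream of cdc-48.1 all 3 lists place a high summit at 158 to 160 bp, while cdc-48.2 has its highest summit at 1024 bp, outside the grey region.

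The paralogues have nearly the same protein, while their upstream sequences shared only short runs. Their annotated proteins have 809 and 810 residues, and 720 of 802 aligned residues (89.8%) were identical. The coding sequences were 76.3% identical, with a longest identical run of 35 bases. All words of 36 bases in the cdc-48.2 region occur once in the genome, so none of them is shared with cdc-48.1. In the cdc-48.1 region 97.5% occur once. In the 1000 bp upstream of each gene the longest run shared, on either strand, was 10 bases. These upstream sequences had a GC content of 35.5% and 36%.

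The cdc-48.1 window held 1 of the 6 short words searched for in it. Both strands were searched for the GA repeat word GAGAGA, for GGGCGG (the GC box), for the E-box CANNTG and for the homeodomain word TAATTA. They were also searched for the POU octamer ATGCAAAT and for its first part, ATGCA, which overlaps it. Of the 6, only the E-box was present in the cdc-48.1 window, once, as CACTTG starting 4 bp after the summit. CANNTG was also present in 51.7% of all thresholded summit windows, in 42.4% of windows 500 bp to either side of them and in 42.7% of windows 160 bp upstream of all protein-coding genes. The cdc-48.1 window held no GAGAGA, which 45.2% of thresholded windows and 7.30% of the flanking ones held. It held no ATGCAAAT either, which was in 0.854% and 1.36% of them. A missing word says only that these letters are not in the window.

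The GC content of the cdc-48.1 window was 36.4%, and 96.2% of thresholded windows had at least as much, with a median of 47.7%. It was within the usual range of upstream sequence, since windows at the same distance from all genes had a median of 33.8% (10th to 90th percentile 25.8% to 43.7%) and flanking windows one of 34.4%. The cdc-48.2 window at the same distance had a GC content of 31.1% and held ATGCA once, as 21.2% of such windows of all genes did, and no other word. The window around its upstream summit had a GC content of 35.1% and none of the 6 words.

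The genes whose promoter peak was most like that of cdc-48.1 were rpl-3, ftt-2, tos-1 and rpl-35. Likeness was the distance between log2 signals over the list median in replicates 1 and 2, among the 1421 genes. The ribosomal protein gene rpl-3 was nearest, at a distance of 0.17, where its peak reached 435.6 in replicate 1 and 452.4 in replicate 2. The 14-3-3 gene ftt-2 was at 0.36 (397.7 and 390.7), tos-1 at 0.45 (375.3 and 370.5) and the ribosomal protein gene rpl-35 at 0.50 (363.1 and 363.2). Replicate 2 gave cdc-48.1 a higher signal than all 4 of these genes, while replicate 1 gave rpl-3 a higher one, so the order of cdc-48.1 and rpl-3 differed between replicates.

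**Figure D3:**
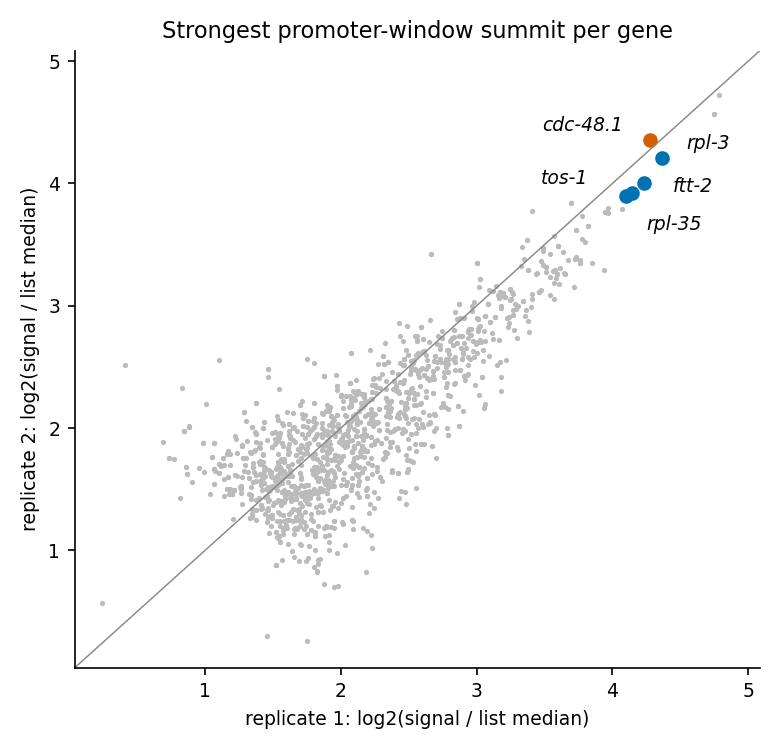
Log2 of signal over the list median in replicate 1 (x axis) and replicate 2 (y axis) for the strongest promoter-window summit of 1421 genes (grey), with cdc-48.1 (orange), the 4 genes most like it (blue) and the line of equal values. The point of cdc-48.1 lies close to that line, with rpl-3 at a distance of 0.17.

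The polyubiquitin gene ubq-1 (WBGene00006727, chrIII:5940254-5943841, plus strand, 3588 bp) came next among the 5. Its strongest pooled summit had a signal of 100.8 and a −log10 q of 2.94, at rank 3078, and thus 0.883 times the lowest thresholded signal. The same site reached 65.8 in replicate 1, at rank 2106, and 41.9 in replicate 2, at rank 4297, with summits 445 and 420 bp into the gene. Replicate 1 thus placed it higher than replicate 2 did. Among the 10408 genes with a pooled summit, ubq-1 ranked 2220.

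This ubq-1 summit, at position 5940683, lay in the first intron, 429 bp from the 5′ end of the longer transcript. It was 303 bp upstream of the start of the other annotated transcript. The window around it was rich in G and C, at 57.6%, a content that 6.17% of thresholded windows reached. It held CACTTG starting 59 bp after the summit and none of the other 5 words.

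The ubq-1 region held 6 summits in each of the pooled and replicate lists, the most of the 5 genes except that replicate 1 also listed 6 at cdc-48.1. Of the 6 pooled ones, 3 had a summit within 100 bp in both replicates. Over all pooled summits 37.4% had such a match, and 6 summits are too few for a comparison. Besides the intron site, 1 of the 3 was 741 bp upstream (signal 57.7, with 20.7 in replicate 1 and 32.1 in replicate 2). Another was in a coding exon 2666 bp into the gene (65.2, with 36.3 and 19.2). A thresholded summit of signal 155.2 lay outside the region, 2140 bp upstream, and was 894 bp upstream of the divergent gene EGAP1.1. The gene's repeated structure limits what its coding summits show. Its protein of 838 residues is 11 units of 76 residues, of which 10 are identical, followed by 2 residues, and the units' coding sequences were 81.1% to 96.5% identical. Of the words of 36 bases in the region 87.5% occur once in the genome, and the handling of reads that match several places is not stated. In the intron window all 116 words were unique.

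The E1 gene uba-1 (WBGene00006699, chrIV:9989671-9994945, minus strand, 5275 bp) had only low summits. Its pooled summits had signals of 30.4, in a 5′ UTR exon 186 bp into the gene, and 28.3, in a coding exon. Replicate 1 listed 3, with signals from 13.0 to 24.2, and replicate 2 listed 2, of 19.3 in an intron and 17.95 at 522 bp upstream. None of the pooled summits had a summit within 100 bp in both replicates. Over all pooled summits below the lowest thresholded signal 31.5% had such a match. Of those at or above it 97.0% had one, but these are the thresholded peaks, from a list thresholded on agreement between the same replicates.

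The gene ufd-1 (WBGene00006733, chrIV:12329408-12330890, minus strand, 1483 bp) had no pooled, thresholded or replicate 1 summit. Replicate 2 listed 1 summit, with a signal of 18.9 and a −log10 q of 0.08, 62 bp upstream. The gap to the next gene upstream, F19B6.1 on the same strand, is 85 bp. By strongest pooled signal the order was cdc-48.1, ubq-1, cdc-48.2 and uba-1, with ufd-1 unlisted. The lower places are less firm, since in replicate 2 cdc-48.2, uba-1 and ufd-1 differed only from 18.9 to 20.2, all below that list's median of 24.4.

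The other genes of the pathway were taken as 9 lists of cofactors, relatives and ubiquitin enzymes. Of 114 listed genes outside the 5, 112 were matched by symbol in the annotation, and duo-2 and vsm-1 were not used here. A thresholded summit was found in the region of 28 of the 112 (25%), against 9.5% of all protein-coding genes, and in the promoter window of 21 (18.8%), against 7.2%. A pooled summit was found in 86 (76.8%), against 52.1%. Among genes with a pooled summit, the strongest one had a median signal of 71.3 against 50.6. The pathway genes were also longer, with a median of 2591 bp against 2027 bp, and the part of length in these shares was not tested. The lists were chosen with earlier results of these data known, so these shares are descriptions. Counts per list below are to be read beside the same 9.5% of all protein-coding genes, and most lists are short. The signal and place given for a gene with a thresholded summit are those of its strongest one. The genes eel-1, lgg-1, lgg-2, duo-3 and ubql-1 had 2 each.

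Among cofactors and proteins with a UBX domain, which bind CDC-48, 4 of 11 had a thresholded summit. These were ufd-2, which encodes an E4 ubiquitin chain elongation factor (signal 223.1, 306 bp upstream), ubxn-3 (189.0, 756 bp upstream), ufd-3 (166.2, 127 bp upstream) and ubxn-2 (124.7, 166 bp upstream). The genes for NPL-4, the partner of UFD-1, had no summit in any list. Only 10.1% of the words of 36 bases in the region of npl-4.1 and 11.8% in that of npl-4.2 occur once in the genome, so these copies could be undercounted. Of 8 other AAA ATPase genes 3 had a thresholded summit. They were vps-4 (231.0, in an intron and also in the promoter window of npr-23), nsf-1 (215.8, 438 bp upstream and shared with adr-1) and spas-1 (181.7, 384 bp upstream), while cdc-48.3 had no summit in any list.

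Of 8 other genes for ubiquitin or proteins like it, 2 had a thresholded summit. These were the autophagy genes lgg-2 (338.8, 278 bp upstream) and lgg-1 (252.5, 892 bp upstream), which encode homologues of yeast Atg8. The ubiquitin fusion gene ubq-2 was just short of the lowest thresholded signal, with a strongest pooled signal of 108.5, and ubl-1 had 61.1. Of 7 other E1 genes uba-5, for the activating enzyme of the ubiquitin-like protein UFM1, had one (134.6, in an intron and also in the promoter window of clec-53).

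The E2 conjugating enzymes had 7 of 25 genes with a thresholded summit, all in promoter windows. The strongest were at let-70, an E2 of the UBCH5 family (406.1, 770 bp upstream, 124 bp from a snoRNA gene and shared with klc-1), ubc-3 (299.1, 237 bp upstream), ubc-6 (240.3, 311 bp upstream and shared with aka-1) and ubc-25 (174.9, 267 bp upstream). Among E3 ligases and cullins 6 of 23 had one. The HECT ligase gene eel-1 had the strongest peak of all 112 genes (518.4, 515 bp upstream, rank 57), with strongest signals of 262.9 in replicate 1 and 264.3 in replicate 2. Next were brc-1, the BRCA1 homologue (294.3, 172 bp upstream), brd-1, which encodes its partner (236.1, in an intron and inside a tRNA gene), and the HECT ligase gene wwp-1 (226.1, 224 bp upstream).

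Deubiquitinating enzymes had 4 of 21, which were otub-2 (310.0, 897 bp upstream), math-33 (177.4, 526 bp upstream and shared with erfa-3), duo-3 (161.8, in an intron) and cyld-1 (135.9, in an intron). Of 3 ubiquitin receptors and shuttles only ubql-1 had a thresholded summit. It had 2, the stronger in an intron (187.2) and the other in its promoter window (142.3). None of 6 genes of endoplasmic reticulum-associated degradation, a process that uses CDC-48, had a thresholded summit. With 9.5% of all protein-coding genes having one, none in so short a list says little about the process. The strongest pooled signal of these 6 genes was 85.4. No gene of these lists reached the signal of cdc-48.1, though cdc-48.1 was chosen for its height. The lists were chosen with earlier results of these data known.

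**Figure D4:**
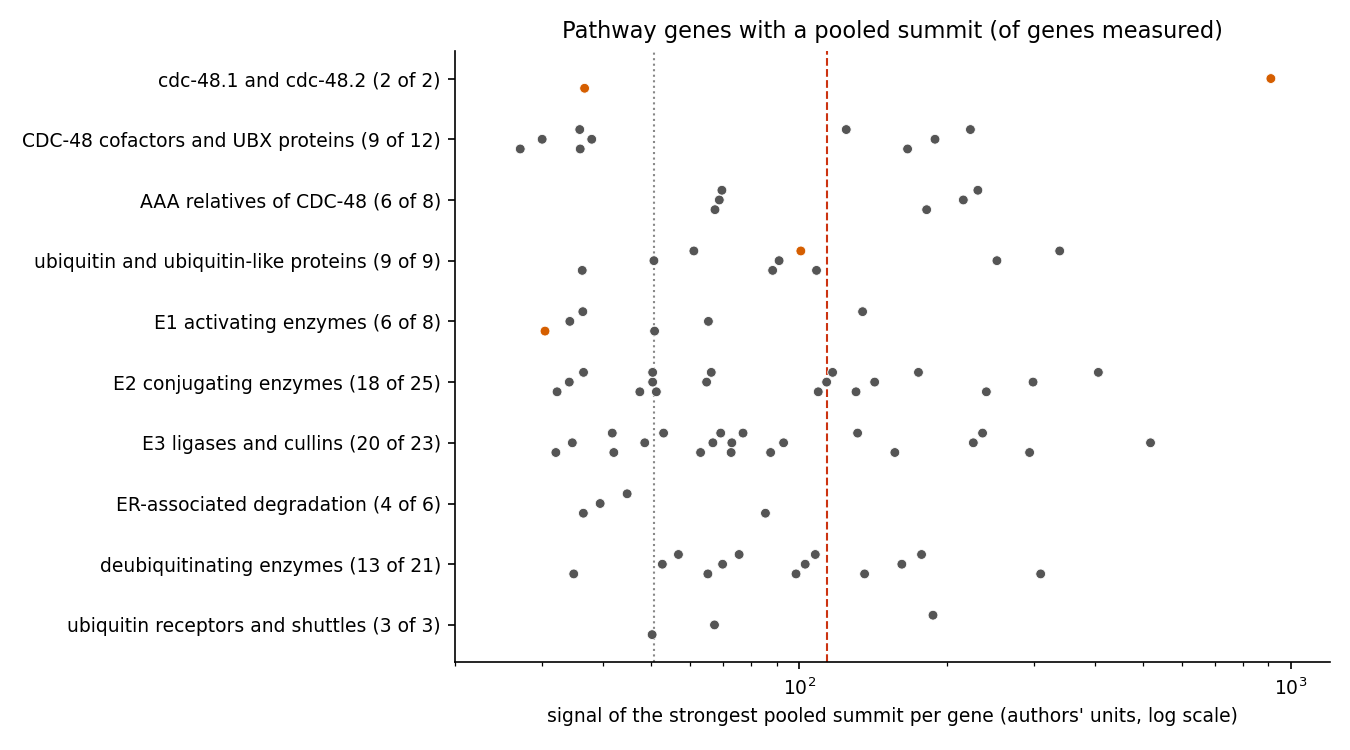
Signal of the strongest pooled summit of each pathway gene that had one (points, log scale) by list. The described genes are in orange, without ufd-1, which had no pooled summit. Lines give the median of all genes with a pooled summit (50.6, dotted) and the lowest thresholded signal (114.2, dashed). The number of genes that had a pooled summit is in brackets. The cdc-48.1 point at 910.9 lies to the right of all others, of which eel-1 at 518.4 is the highest.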

How the data were processed

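The authors' deposited notes say that peak lists were made from alignments of immunoprecipitated reads and a control, for each replicate and pooled, with a further list thresholded by the irreproducible discovery rate. No aligner or caller is named in the sources used here. The signal is the peak height deposited by the authors, on an unstated scale, and the −log10 q of each peak is also theirs. The depth of the libraries is unknown, as no reads were used here. The list of replicate 1 has exactly 30000 peaks, which may be a length limit. The ce10 lists were not used here.

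Summits (start plus offset, 1-based) of the ce11 lists were assigned to genes of Ensembl release 115 (WBcel235), and sequences were read from the RefSeq copy of that assembly. The region functions were checked with planted summits. Words were searched within 75 bp of a summit, on both strands. Longest coding sequences were translated and aligned with biopython 1.88. Python 3.11.15, numpy 2.4.6, pandas 2.3.3 and matplotlib 3.10.9 were used.

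The 5 genes, the pathway lists and the words were chosen with earlier results of these data known, so no test was made and all values are descriptions. Named pathway genes were the up to 4 with the strongest thresholded summit in each list. Others named (npl-4.1, npl-4.2, cdc-48.3, ubq-2 and ubl-1) were chosen after their values were seen. The labels call the replicates biological and say no more, so their agreement may be partly technical. Alternatives were other regions, overlap of peak intervals, the 1287 strongest thresholded peaks, the strongest peaks of each replicate and other window widths.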

Additional observations from a re-analysis of the deposited data

How the results depend on the processing

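With regions from 500 or 2000 bp upstream, with promoter windows only, with peak intervals in place of summits and with the 1287 strongest thresholded peaks, cdc-48.1 remained the one gene of the 5 with a peak, and merging summits within 150 bp left 1 summit. With as many strongest peaks of 1 replicate alone, the count of the 5 genes and of their summits was 1 to 2, the second being ubq-1 in replicate 1. The count of other pathway genes was 18 with those 1287 peaks, against 28, and 21 to 37 under the other alternatives. The log2 ratio of cdc-48.1 to cdc-48.2 was positive under each alternative that gave a value. It was 3.93 to 4.63 with 1 replicate, 3.25 with 2000 bp upstream or with interval overlap, because the summit 1024 bp upstream of cdc-48.2 then counts, and 12.31 with ranks in place of signal. In promoter windows it had no value, since cdc-48.2 had no pooled summit there. The cdc-48.1 window held 1 of the 6 words at all 3 widths. No paired analysis was possible because the samples form a single group. Depth is unknown, so an unlisted summit may be one too weak to list.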

Other observations

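GAGAGA, in 45.2% of all thresholded windows, was in 41 of the 100 strongest and in 3 of the 20 strongest, and the windows of cdc-48.1, rpl-3, ftt-2, tos-1 and rpl-35 held none. The word CACTTG, picked after it was seen beside the cdc-48.1 summit, was in 9.75% of thresholded windows, 14 of the 100 strongest and 3 of the 20 strongest. Both of these counts include the windows of cdc-48.1, from which the word was picked, of rpl-3 and of tos-1, which holds its reverse complement CAAGTG. These windows are the 3 of the 20 strongest. The word was in 5.65% of the flanking windows and 6.42% of windows 160 bp upstream of all genes. CANNTG was in 51.7% of all thresholded windows, 45 of the 100 strongest and 13 of the 20 strongest. These are descriptions of this peak list, with no test.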
